A study of Mus musculus with 30 samples.

Results

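When fetal mouse testes received MEHP and ATRA together, 6 of 19323 genes departed from the sum of the log2 changes that each compound gave alone. For the other genes no departure was detected at the precision of these libraries. The 6 genes were found with all 30 libraries of the series, grouped by treatment label. The quantity described here is the interaction: the MEHP change in the presence of ATRA minus the MEHP change without it, per gene, on the log2 scale. A value of 0 means that the log2 changes add, which is the same as saying that the fold changes multiply.

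The samples were testes of C57BL/6 mouse fetuses, of no other genotype named, taken on gestational day 14, freed of the mesonephros (the neighbouring embryonic kidney) and kept as whole-organ cultures for 24 h. All media held DMSO, the solvent, at the same dilution. There were 15 cultures with vehicle alone, 6 with 100 µM MEHP, 5 with 1 µM ATRA and 4 with 100 µM MEHP + 1 µM ATRA, and each library was sequenced to between 17551454 and 29306917 counted reads. The labels do not say whether testes were pooled or which came from 1 litter, so the p-values measure the spread between these samples, which may be partly technical.

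MEHP (mono-2-ethylhexyl phthalate) is the active metabolite of a plasticizer. It can activate peroxisome proliferator-activated receptors (PPARs), nuclear receptors that turn on genes of fatty acid use, and it is known for harming fetal germ cells and Sertoli cells. ATRA (all-trans retinoic acid) binds retinoic acid receptors, which sit on DNA together with retinoid X receptors, the same partners that PPARs use. In the fetal ovary retinoic acid accompanies the entry of germ cells into meiosis, while in the fetal testis the enzyme Cyp26b1 breaks it down and germ cells do not enter meiosis.

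A pair of numbers, left unexplained by the labels, stands in each sample's title. The second of them runs from 416 to 465 in 18 libraries, here the lower range, and from 525 to 599 in the other 12, here the upper range. Every MEHP library belongs to the upper range and every ATRA and MEHP + ATRA library to the lower one, while vehicle has 9 lower-range and 6 upper-range libraries. With a term for the range, MEHP alone was therefore set against the 6 upper-range vehicle libraries, and MEHP + ATRA against the 5 ATRA libraries of the lower range. These 21 libraries set the value of the interaction, and the 9 lower-range vehicle libraries entered only the estimate of the spread. Within each range the MEHP change is free of the range, but the presence of ATRA and the range cannot be told apart in the interaction. Genes of the testis were at high levels throughout: the summed level of the Sertoli cell markers Sox9, Amh, Dhh and Ptgds lay between 819 and 2218 CPM (read counts scaled to a common library size) and that of the fetal Leydig cell markers Insl3, Cyp17a1 and Cyp11a1 between 827 and 1465, against 4.66 to 14.8 for the mesonephros markers Pax2, Pax8 and Lhx1. Germ cell markers (Ddx4, Dazl and Pou5f1) summed to 202 to 387 CPM in upper-range vehicle and 200 to 345 with MEHP, and to 348 to 501 with ATRA and 338 to 465 with both. Germ cell RNA thus tended to be lower in the upper range, where MEHP alone was measured, and its part in the interaction was not tested. In whole organs, fewer cells of a type and less RNA per cell cannot be told apart.

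Of the 19323 genes, edgeR's quasi-likelihood test with Benjamini-Hochberg adjustment called 6 in the interaction (0.0311%), 2 with a positive value (0.0104%) and 4 with a negative one (0.0207%), at an adjusted p under 0.05. The same test called 912 genes with MEHP alone (4.72%; 2.88% rose and 1.84% fell) and 3494 with ATRA alone (18.1%; 9.06% rose and 9.03% fell). It called 5595 for MEHP + ATRA against vehicle (29%; 14.3% rose and 14.7% fell) and 579 for MEHP added to ATRA (3%; 1.62% rose and 1.38% fell). At an unadjusted p under 0.05 the interaction counted 827 genes (4.28%), of which 364 were positive (1.88%) and 463 negative (2.40%). The median interaction over all genes was -0.005. Precision sets what could be seen: the 95% interval reached a median of 0.33 either side of the value on the log2 scale over all genes, 0.25 in the 14368 genes whose log2 CPM averaged 1 or more and 0.93 in the 4955 genes below that level. The whole interval lay inside 1 log2 unit either side of 0 in 94% of the better expressed genes, and inside 0.5 in 71.9%. The smallest interaction called was 0.75 in size.

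**Figure D1:**
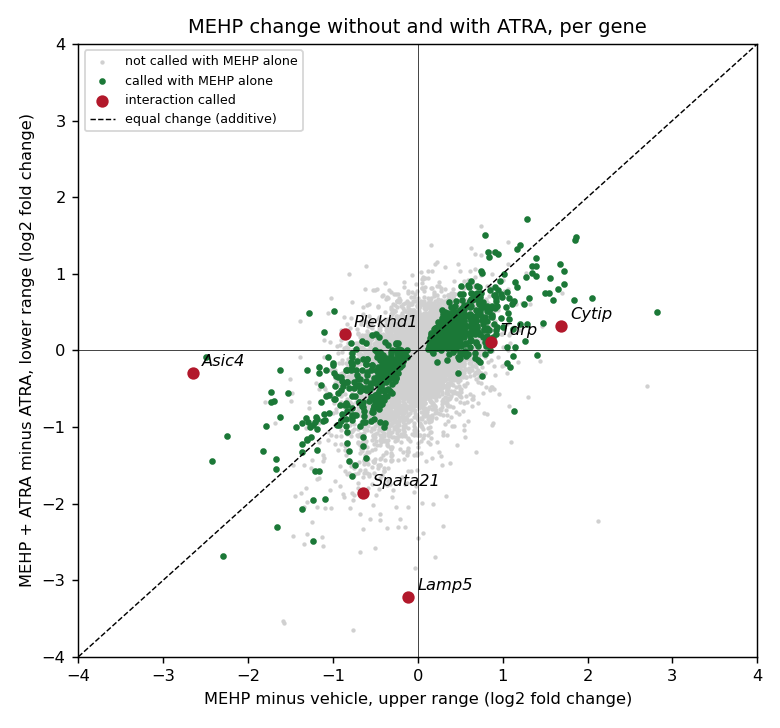
Each point is 1 of 19323 genes, with the log2 change by MEHP alone (upper range) on the x axis and the log2 change by MEHP added to ATRA (lower range) on the y axis; the dashed line marks equal changes, green points are the 912 genes called with MEHP alone, and red points are the 6 called in the interaction. Csn3 (x = 4.24) and Gm7298 (y = -5.44) lie outside the axes, and most green points share a sign on both axes and lie nearer to 0 on the y axis.

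The 6 genes were Asic4, Plekhd1, Tdrp and Cytip, in which the joint change was smaller than the sum (sub-additive), Spata21, in which it was larger (super-additive), and Lamp5, which fell with ATRA, was not called with MEHP alone and fell further with both. All were read from raw counts and are given below as CPM, which rank libraries within a gene but not 1 gene against another.

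Asic4, of the acid-sensing ion channel family, had the largest departure relative to its error and lies on chromosome 1 (75450436 to 75474343, plus strand, GRCm38 coordinates of the deposited files). In the 6 upper-range vehicle libraries its lowest, median and highest levels were 8.8, 14.2 and 16.7 CPM, and in the 6 MEHP libraries 1.63, 1.98 and 3.01. The 5 ATRA libraries held 1.6, 2.05, 2.33, 1.9 and 1.74 CPM and the 4 libraries with both held 1.77, 1.91, 1.08 and 1.51. Either compound alone thus brought every library below every vehicle library of its range, and the libraries with both overlapped those with ATRA. MEHP alone gave a log2 change of -2.65 ± 0.19 (SE), ATRA alone -2.54 ± 0.19 and both -2.85 ± 0.21, against a sum of -5.20. Adding MEHP to ATRA gave -0.30 ± 0.24 (edgeR adjusted p = 0.659), and the interaction was 2.35 ± 0.30 (95% interval 1.74 to 2.97, edgeR adjusted p = 0.000184). At the sum, the expected level with both would be 0.306 CPM, and the measured mean was 1.57 ± 0.364 (SD, n = 4). A transcript annotated on the other strand, Gm37264, overlaps the gene, and whether the counting used strand is not stated in the sources used here.

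Spata21, a spermatogenesis associated gene on chromosome 4 (141088333 to 141112760, plus strand), was the one gene with a called interaction that fell with each compound and fell by more than the sum with both. Its levels were 45.4, 51.9 and 61.0 CPM (lowest, median, highest) in upper-range vehicle and 25.1, 32.3 and 40.9 with MEHP. With ATRA they were 22.8, 12.6, 12.8, 15.6 and 14.3 CPM, and with both 4.32, 4.56, 4.5 and 3.87. No library with both reached the lowest ATRA library, and no MEHP library reached the lowest vehicle library. The log2 changes were -0.64 ± 0.11 with MEHP, -1.65 ± 0.12 with ATRA and -3.51 ± 0.15 with both, against a sum of -2.30. Adding MEHP to ATRA gave -1.86 ± 0.16 (edgeR adjusted p = 1.2e-08), so the interaction was -1.21 ± 0.20 (95% interval -1.61 to -0.81, edgeR adjusted p = 0.00566).

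Cytip, the cytohesin-interacting protein, lies on chromosome 2 (58129137 to 58195532, minus strand) and rose with each compound. Upper-range vehicle libraries held 1.33, 1.89 and 2.29 CPM (lowest, median, highest) and MEHP libraries 3.65, 6.56 and 8.21. The ATRA libraries held 13.5, 12.3, 13.4, 11.4 and 11.1 CPM and the libraries with both 16.5, 14.8, 14.6 and 15.9. Every library with both stood above every ATRA library. On the log2 scale, however, the step was small beside the step that MEHP made without ATRA. The log2 changes were 1.69 ± 0.17 with MEHP, 2.5 ± 0.14 with ATRA and 2.83 ± 0.15 with both, against a sum of 4.19, and the interaction was -1.37 ± 0.24 (95% interval -1.85 to -0.88, edgeR adjusted p = 0.0121). Adding MEHP to ATRA gave 0.32 ± 0.17 (edgeR adjusted p = 0.407). On a linear scale the picture was different: the joint rise was 7.1-fold, the product of the single folds 18.4 and the sum of the linear increments 7.91, so Cytip was sub-additive as folds and close to additive as increments. An antisense gene, Gm13546, overlaps it.

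Retinoic acid receptors bind pairs of the element AGGTCA, and so do PPARs with their partners. The 250 bases before the RefSeq start (GRCm38.p6) are shown for a rising and a falling gene of the 6, with matches of AGGTCA on either strand in capitals. No such window was at hand for Asic4 and Tdrp. The Cytip window lies inside the gene span given above, so it precedes a start within that span. Cytip (chr2:58160123-58160372, minus strand) holds 1 match, on the reverse strand, and Spata21 (chr4:141088095-141088344, plus strand) holds 0:
Cytip: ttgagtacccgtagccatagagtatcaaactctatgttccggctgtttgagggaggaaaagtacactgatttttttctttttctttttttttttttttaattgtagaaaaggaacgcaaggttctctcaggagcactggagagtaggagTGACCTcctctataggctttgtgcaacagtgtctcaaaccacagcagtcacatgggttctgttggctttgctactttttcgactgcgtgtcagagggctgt
Spata21: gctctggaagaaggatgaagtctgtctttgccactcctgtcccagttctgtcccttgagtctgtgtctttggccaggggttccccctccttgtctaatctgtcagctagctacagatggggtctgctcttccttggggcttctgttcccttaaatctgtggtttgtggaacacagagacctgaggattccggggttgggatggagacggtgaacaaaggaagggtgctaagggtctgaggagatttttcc
The element occurs in 14% of 32851 such windows of all genes, so 1 match is a common feature. No direct repeat of it with a spacer of 1, 2 or 5 bases was found in either window. Such repeats occur in 0.0335%, 0.00913% and 0.00913% of all windows, so their absence from these windows says little.

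Tdrp, the testis development related protein gene on chromosome 8 (13952008 to 13975032, minus strand), showed a full cap: with both compounds it stayed below the level that MEHP alone gave. Its levels were 25.7, 27.4 and 28.8 CPM (lowest, median, highest) in upper-range vehicle and 36.2, 52.1 and 56.5 with MEHP. The ATRA libraries held 35.3, 28.5, 33.3, 33.3 and 29.1 CPM and those with both 36.0, 34.4, 33.5 and 34.2. MEHP raised every library above vehicle, whereas libraries with both overlapped those with ATRA. The log2 changes were 0.86 ± 0.08, 0.37 ± 0.08 and 0.49 ± 0.08 for MEHP, ATRA and both, against a sum of 1.24. The interaction was -0.75 ± 0.12 (95% interval -1 to -0.50, edgeR adjusted p = 0.00566).

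Plekhd1, a pleckstrin homology domain gene on chromosome 12 (80692591 to 80724214, plus strand), was the corresponding fall. Upper-range vehicle libraries held 7.05, 10.2 and 11.2 CPM (lowest, median, highest) and MEHP libraries 4.21, 5.39 and 6.2. The ATRA libraries held 5.95, 4.01, 5.17, 4.87 and 5.85 CPM and the libraries with both 5.39, 7.73, 5.36 and 5.42. The libraries with both overlapped those with ATRA and the lower-range vehicle libraries. MEHP gave -0.86 ± 0.13, ATRA -0.46 ± 0.12 and both -0.25 ± 0.13 (edgeR adjusted p = 0.161 for both), against a sum of -1.32, and the interaction was 1.06 ± 0.19 (95% interval 0.67 to 1.46, edgeR adjusted p = 0.0245). In vehicle cultures Plekhd1 was 0.44 higher in the upper range on the log2 scale (edgeR adjusted p = 0.0729), and without the range term the interaction was not called (edgeR adjusted p = 0.223).

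Lamp5, a lysosome-associated membrane protein gene on chromosome 2 (136052239 to 136069917, plus strand), was at low levels. It held 2.52, 3.07 and 4.7 CPM (lowest, median, highest) in upper-range vehicle and 2.14, 3.21 and 3.88 with MEHP, which overlap. With ATRA it held 0.451, 0.524, 0.255, 0.615 and 0.474 CPM, and with both 0, 0, 0.045 and 0.122. All libraries with both were below all with ATRA, but they held 4 reads in total against 51 in the 5 ATRA libraries. The fitted log2 changes were -0.11 ± 0.21 with MEHP (edgeR adjusted p = 0.885), -2.25 ± 0.26 with ATRA and -5.47 ± 0.43 with both, and the interaction was -3.10 ± 0.59 (95% interval -4.31 to -1.90, edgeR adjusted p = 0.037). Its size depends on those 4 reads and on how the fit treats 0.

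**Figure D2:**
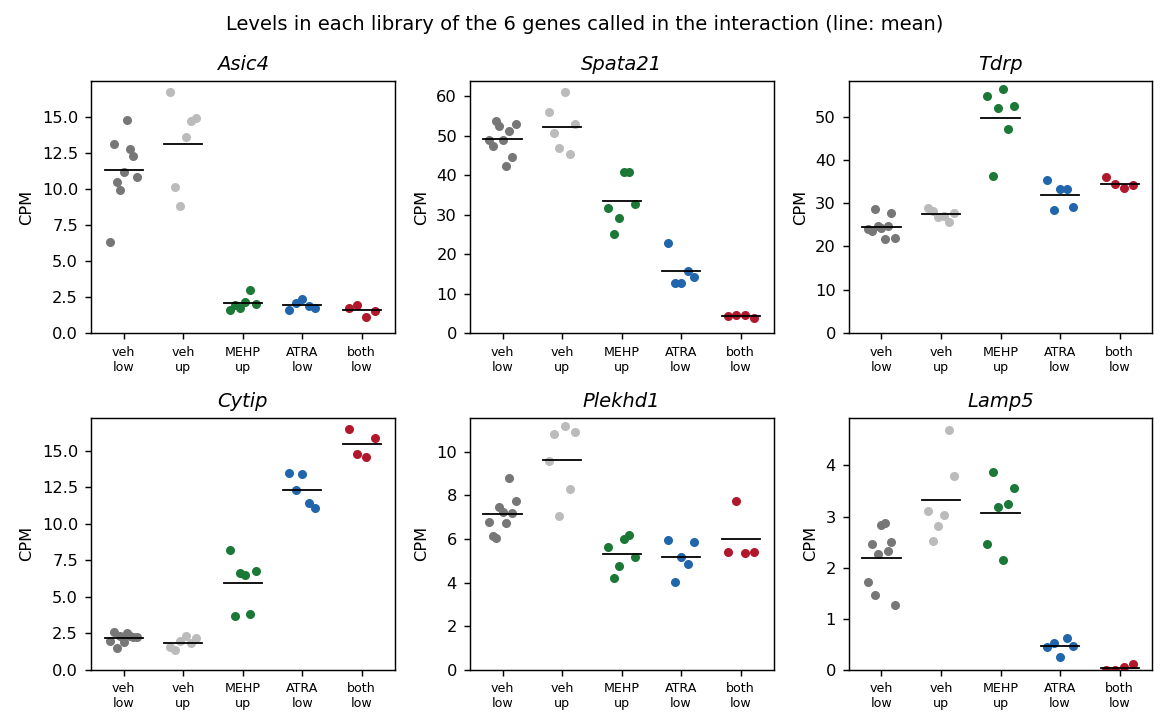
Each point is 1 library and each line the mean of its group, in CPM on a linear axis from 0, for the 6 genes called in the interaction; "low" and "up" are the lower and upper range of the second title number, and "both" is MEHP + ATRA. Asic4 is near 2 CPM with either compound and with both, whereas Spata21 steps down from vehicle to MEHP to ATRA to both.

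Leaving out 1 library at a time, Asic4, Spata21 and Tdrp were called in 30 of 30 fits and Cytip in 29, with an edgeR adjusted p of 0.0509 without MEHP + ATRA replicate 2. Plekhd1 was called in 22 and Lamp5 in 15 of the 30. Plekhd1 lost its call without ATRA replicate 2 or 4, MEHP replicate 3 or 6, MEHP + ATRA replicate 2 or vehicle replicate 4, 10 or 14, with an adjusted p up to 0.132. Lamp5 lost it without ATRA replicate 1, 2, 4 or 5, MEHP replicate 3, 5 or 6, MEHP + ATRA replicate 1, 2 or 3, or vehicle replicate 4, 6, 7, 10 or 14, with an adjusted p up to 0.158. The sign stayed the same in each of these fits, and the value for Lamp5 ran from -4.34 to -2.73. With only the 4 groups of libraries in the contrast, Asic4 and Tdrp kept their calls, while the edgeR adjusted p was 0.0786 for Spata21, 0.0814 for Cytip and Lamp5 and 0.102 for Plekhd1. Cytip also missed the threshold with limma-voom (adjusted p = 0.0864) and Lamp5 with DESeq2 (adjusted p = 0.0708). Under a block on the first title number, which the labels leave unexplained, some calls were lost. Tdrp lost its call with the block within each range and also over all libraries, and Spata21 with the block within each range.

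**Figure D3:**
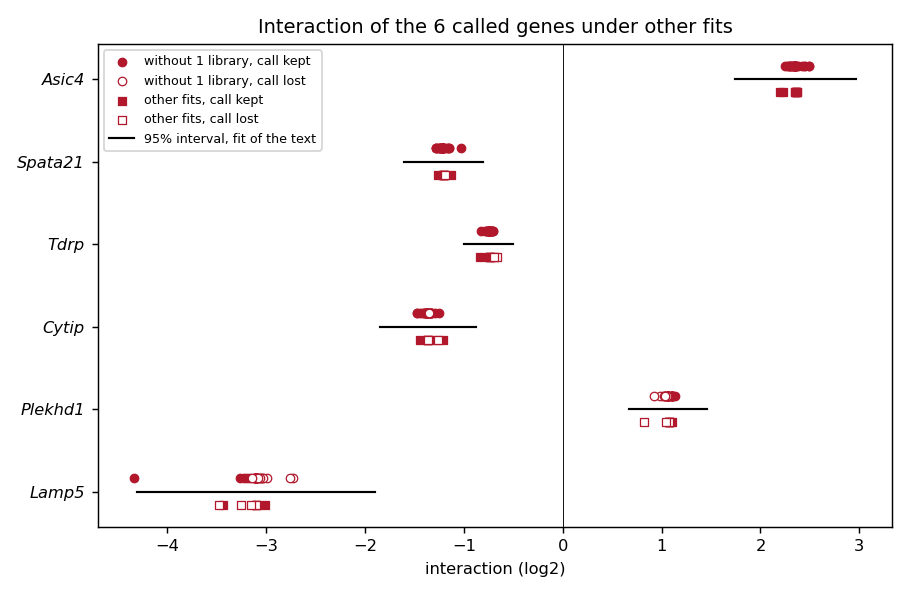
The x axis is the interaction (log2) of each of the 6 genes, with the black line its 95% interval, circles the fits without 1 library and squares the fits under other settings; filled symbols kept the call and open ones lost it. Asic4 has filled symbols alone, and Lamp5 and Plekhd1 have many open ones; the symbols of each gene lie on 1 side of 0.

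Just outside the threshold stood Gabrb2, Cabp1 and Shc4, which are named because of these values. Gabrb2, a subunit of the GABA-A receptor, was not called with MEHP alone (0.05 ± 0.13, edgeR adjusted p = 0.921) and fell by 1 ± 0.17 when MEHP was added to ATRA, with an interaction of -1.05 ± 0.21 (edgeR adjusted p = 0.0619). Its mean levels were 6.13 CPM in upper-range vehicle, 6.35 with MEHP, 3.64 with ATRA and 1.81 with both. Cabp1, a calcium-binding protein of neurons, showed a pattern like that of Asic4: MEHP gave -1.73, ATRA -1.92 and both -2.46, with an interaction of 1.19 ± 0.24 (edgeR adjusted p = 0.0624). Shc4, an adaptor protein, rose by 0.92 ± 0.09 with MEHP and had 0.27 ± 0.10 with MEHP added to ATRA (edgeR adjusted p = 0.178), an interaction of -0.65 ± 0.13 (edgeR adjusted p = 0.0624). These 3 reached the threshold under some of the other tools or filters.

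Of 24 genes given whatever their result, and chosen with earlier results of these data known, Asic4 and Lamp5 were called and 22 were not. Dhrs3, a retinaldehyde reductase that retinoic acid induces, rose by 2.59 ± 0.06 with ATRA, 0.57 ± 0.07 with MEHP and 3.06 ± 0.07 with both, with an interaction of -0.10 ± 0.10 (95% interval -0.31 to 0.11). Rarb, the retinoic acid receptor beta gene and a direct target of the receptors, rose by 3.85 ± 0.16 with ATRA and 4.30 ± 0.17 with both, and its interaction was -0.11 ± 0.27 (interval -0.65 to 0.43). For Cyp26a1, which breaks retinoic acid down, the interval was wide, -1.96 to 0.83. Rec8, a meiotic cohesin, had 0.11 ± 0.32 (interval -0.55 to 0.77).

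Stra8, which germ cells need to enter meiosis, rose with each compound alone. It held 1.63, 2.3 and 4.13 CPM (lowest, median, highest) in upper-range vehicle and 2.91, 9.71 and 19.5 with MEHP. The ATRA libraries held 56.5, 168, 205, 144 and 135 CPM and those with both 226, 243, 206 and 232. MEHP libraries overlapped those of vehicle at the low end, and every library with both was above every ATRA library, the nearest pair being 206 against 205 CPM. The log2 changes were 2.05 ± 0.42 with MEHP, 5.03 ± 0.32 with ATRA and 5.70 ± 0.33 with both, against a sum of 7.08, but the interaction of -1.37 ± 0.54 (95% interval -2.48 to -0.26) had an edgeR adjusted p of 0.879. As increments on the linear scale the order turned: the joint rise was 52.2-fold, above the 35.8-fold that the linear increments sum to and below the 135-fold product.

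Hsd17b1, a 17-beta hydroxysteroid dehydrogenase of fetal Sertoli cells, fell with each compound. Its levels in upper-range vehicle were 64.4, 86.8 and 109 CPM (lowest, median, highest), and 27.7, 43.2 and 53.2 with MEHP. With ATRA they were 21.4, 16.2, 11.9, 16 and 17.9 CPM and with both 4.62, 4.0, 3.65 and 5.09, so that no group overlapped its comparator. The log2 changes were -1.09 ± 0.14, -2.04 ± 0.15 and -3.98 ± 0.20 for MEHP, ATRA and both, against a sum of -3.13. The interaction was -0.85 ± 0.25 (95% interval -1.36 to -0.33, edgeR adjusted p = 0.485, unadjusted p = 0.00212), which did not pass. Hsd17b3, the Leydig and Sertoli cell enzyme that makes testosterone, had changes of -0.45 with MEHP, -0.66 with ATRA and -1.58 with both, and an interaction of -0.48 ± 0.12 (edgeR adjusted p = 0.289). Slc13a2, a carboxylate transporter, and Miox, an inositol oxygenase, had log2 changes of -4.69 and -5.29 with both, and the intervals of their interactions were -1.29 to -0.00 and -1.52 to 0.76. Slc13a2 overlaps the antisense gene Slc13a2os.

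Angptl4, a PPAR target that inhibits lipoprotein lipase, was moved in opposite directions by the 2 compounds. It held 47.1, 53.5 and 55.4 CPM (lowest, median, highest) in upper-range vehicle, 118, 139 and 159 with MEHP, 51.6, 42.7, 42.0, 45.4 and 43.3 with ATRA, and 104, 82.8, 106 and 94.0 with both. MEHP raised it by 1.39 ± 0.07 on the log2 scale without ATRA and by 1.10 ± 0.08 with ATRA, in every library, and the interaction was -0.28 ± 0.11 (95% interval -0.51 to -0.06, edgeR adjusted p = 0.843). Cpt1a, the gate of mitochondrial fatty acid oxidation, rose by 0.61 ± 0.07 and 0.65 ± 0.08, an interaction of 0.04 ± 0.11 (interval -0.18 to 0.26). Hmgcs1, an early enzyme of cholesterol synthesis, rose by 0.47 ± 0.08 and 0.37 ± 0.09 (interval -0.34 to 0.13).

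Among cell identity genes, the interaction of Sox9, a transcription factor of Sertoli cells, was -0.14 ± 0.22. That of Amh, the anti-Müllerian hormone gene, was 0.13 ± 0.22. For Dhh, the hedgehog ligand of Sertoli cells, it was -0.18 ± 0.16 and for Ddx4, a germ cell helicase, 0.05 ± 0.25. The steroidogenic genes Star and Cyp17a1 had interactions of 0.32 ± 0.21 and 0.32 ± 0.31. Insl3, a Leydig cell hormone whose gene overlaps Jak3, had -0.17 ± 0.22. Foxl2, an ovarian granulosa cell factor, rose 2.23 ± 0.21 with ATRA and 2.17 ± 0.22 with both, while MEHP alone gave 0.72 ± 0.24 (edgeR adjusted p = 0.0901) and the interaction was -0.78 ± 0.35 (interval -1.49 to -0.07, edgeR adjusted p = 1). Nanos2, a male germ cell RNA-binding factor, and Egr1, an immediate early gene, had -1.26 ± 0.78 and 0.48 ± 0.25.

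The MEHP changes with and without ATRA share no libraries, which lets 1 be read against the other. Of the 912 genes called with MEHP alone, 862 (94.5%) had the same sign when MEHP was added to ATRA, 618 did so at an unadjusted p under 0.05, for which the share over all genes was 13.3%, and 312 were called in both. None was called in the opposite direction, and 1 had an opposite sign at an unadjusted p under 0.05. The median size was 0.46 without ATRA and 0.29 with it, and the median ratio was 0.71 (interquartile range 0.43 to 0.97). Picked the other way round, the 579 genes called with ATRA present had a median size of 0.51 with ATRA and 0.35 without, a ratio of 0.67. In each direction of choice the change was thus smaller in the comparison that had not chosen the genes. Across genes the changes correlated at r = 0.82 in the 912 genes and 0.50 over all 19323. Genes are not independent replicates, and no test is given.

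By class, the ratio of the MEHP change with ATRA to that without was 0.64 in the 312 genes that rose with MEHP and with ATRA, 0.74 in the 232 that rose with MEHP and were not called with ATRA, and 0.98 in the 12 that rose with MEHP and fell with ATRA. For falls it was 0.75 in the 245 genes that fell with each, 0.78 in the 107 not called with ATRA and 0.68 in the 4 that rose with ATRA. The classes were sorted by the calls of each compound alone, which share libraries with this ratio. Differences between the classes are therefore descriptions. Among genes not called with MEHP alone, Lamp5 was the one called in the interaction. The class of genes not called with MEHP that fell with ATRA held 1487 genes. Of these, 167 had an unadjusted interaction p under 0.05 (11.2%, against 4.28% of all genes), 107 positive and 60 negative. In the 1434 genes not called with MEHP that rose with ATRA the share was 4.88%, 26 positive and 44 negative. Both classes were selected by ATRA alone, which shares libraries with the interaction, so the signs are descriptions.

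Of the genes called with each compound, 557 moved the same way, 312 up and 245 down, and 16 moved in opposite ways. The interaction was called in 5 of the 557: Cytip and Tdrp among the rises and Asic4 and Plekhd1 among the falls were sub-additive, and Spata21 among the falls was super-additive. Of the rises, 264 of 312 (84.6%) stayed below the sum, with a median joint change of 0.87 against a median sum of 1.01 and a median ratio of joint to sum of 0.85 (interquartile range 0.75 to 0.94). Of the falls, 177 of 245 (72.2%) fell by less than the sum, with a median ratio of 0.88 (0.73 to 1.02). At an unadjusted p under 0.05, 76 rises were sub-additive and 1 super-additive, and 46 falls were sub-additive and 12 super-additive.

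A joint change no larger than the larger single change, called a cap here, was found in 22 of the 312 rises and 23 of the 245 falls, 45 in all, and Tdrp and Plekhd1 were the ones with a called interaction. In 290 rises and 222 falls the fitted joint change was larger than the larger single change, a difference that was not tested gene by gene. MEHP added to ATRA was called in 113 of the 312 rises (1.62% of all genes rose). It was called in 87 of the 245 falls (1.38% of all genes fell). With the rises split into 3 equal groups from the smallest to the largest summed change, the ratio was 0.87, 0.86 and 0.82 and the median interaction -0.07, -0.14 and -0.38. In the falls, split the same way, the ratios were 0.83, 0.91 and 0.88 and the median interaction 0.10, 0.10 and 0.26. The split uses the sum of the single changes, which shares libraries with the interaction. A trend across the 3 groups is therefore a description. On the linear scale, 141 of the 312 rises exceeded the sum of increments and 171 did not. For 46 of the falls the linear decrements sum to more than the whole vehicle level, so a linear sum has no meaning there, Asic4 and Spata21 among them.

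These ratios come from genes selected by their single changes, which share libraries with the interaction: by design the estimate of MEHP alone correlates with that of the interaction at -0.652, and that of ATRA alone at -0.405. The average of the MEHP changes with and without ATRA is almost unrelated to the interaction by design (0.149). Selected by that average, an analysis added after the data were seen, 947 genes rose and 867 fell. The interaction opposed the rise in 54.4% of the 947 and the fall in 35.2% of the 867. In the 438 that rose by this average and with ATRA, it opposed the rise in 66.2%, with a median interaction of -0.069, and in the 461 that fell both ways it opposed the fall in 40.6%, with a median of -0.059. The median ratio of joint to summed change for same-direction genes was then 0.98, against 0.86 over the 557 genes selected by single changes. Rises and falls differed under this selection. At an unadjusted p under 0.05 the interaction opposed the rise in 59 of the 438 and went with it in 9. It opposed the fall in 28 of the 461 and went with it in 44. These 438 and 461 genes were also selected by ATRA alone, so they keep its design correlation with the interaction. Among genes not called with ATRA, the interaction opposed the rise in 46.5% of 467 and the fall in 28.9% of 388. It opposed the rise in 19% of the 42 that fell with ATRA, and the fall in 33.3% of the 18 that rose with it. The pooled ratio of 0.98 covers rises and falls and carries the same selection by ATRA alone.

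**Figure D4:**
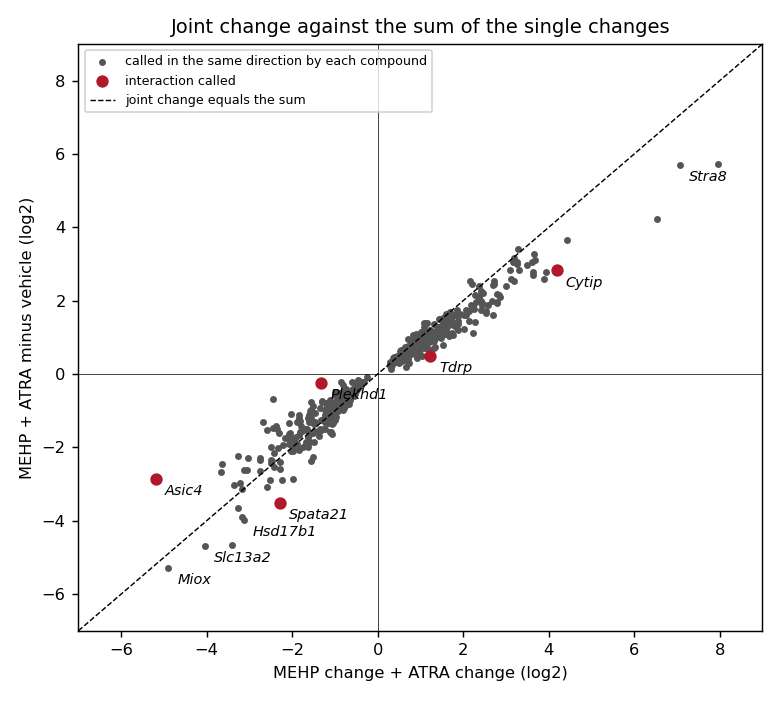
The x axis is the MEHP change plus the ATRA change and the y axis the change measured with both, in log2, for the 557 genes called in the same direction with each compound; the dashed line marks equality and red points are the 5 called in the interaction. Asic4 lies far above the line among the falls, Spata21 below it, and Cytip and Tdrp below it among the rises.

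Across 24 gene lists (451 distinct genes tested), 0 genes were called in the interaction by edgeR and 43 had an unadjusted p under 0.05 (9.53%, against 4.28% of all genes). DESeq2 called 1 of them, Elovl2. The lists were chosen with earlier results of these data known, and 15 of the 43 genes were proliferation genes, so the share is a description. Cholesterol biosynthesis was the list of the 24 in which every interval lay inside 0.5 log2 units either side of 0. Of its genes, 19 of 20 rose with MEHP alone (2.88% of all genes did) and 18 of 20 when MEHP was added to ATRA (1.62%). The median changes were 0.48 and 0.46. All 20 interactions lay between -0.16 and 0.14. Mvd, which makes isopentenyl diphosphate, rose by 0.97 ± 0.08 without ATRA and 0.90 ± 0.09 with it, Sc5d, a late sterol desaturase, by 0.69 ± 0.08 and 0.67 ± 0.09, and Sqle, squalene epoxidase, by 0.43 ± 0.07 and 0.41 ± 0.08.

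In the list of PPAR targets and fatty acid oxidation, 14 of 34 genes rose with MEHP alone (2.88% of all genes did) and 8 with MEHP added to ATRA (1.62% of all genes), and the median interaction was -0.02. Acot2, a mitochondrial acyl-CoA thioesterase, rose by 0.54 ± 0.08 without ATRA and had 0.20 ± 0.09 with it (edgeR adjusted p = 0.286), an interaction of -0.33 ± 0.12 (edgeR adjusted p = 0.725). Among 22 genes of fatty acid elongation and desaturation, the median interaction was -0.03, and Elovl2, which lengthens polyunsaturated fatty acids, stood apart with -2.43 with MEHP, -1.23 with ATRA and -2.67 with both, an interaction of 0.98 ± 0.24 (edgeR adjusted p = 0.289).

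Proliferation genes gave the largest number of small departures in 1 direction. Of 23 genes, 15 had a positive interaction at an unadjusted p under 0.05 (1.88% of all genes did) and 0 a negative one (2.40%). The median was 0.24 against -0.005 for all genes. None of them was called in the interaction. With ATRA alone 10 of the 23 fell (median -0.13, 9.03% of all genes fell) and with MEHP alone 1 fell (median -0.06, 1.84% of all genes). With MEHP added to ATRA 3 rose (median 0.23, 1.62% of all genes), which left the median joint change at 0.05. For Mki67, a marker of cycling cells, the upper-range vehicle libraries held 400, 463 and 500 CPM (lowest, median, highest), the MEHP libraries 391, 460 and 492 and the lower-range vehicle libraries 371, 445 and 478. The ATRA libraries held 326, 349, 346, 375 and 369 CPM and those with both 462, 394, 439 and 426. The ATRA libraries were low but overlapped the lowest lower-range vehicle library, and all libraries with both were above all with ATRA. Mki67 fell by 0.32 ± 0.06 with ATRA and rose by 0.29 ± 0.07 when MEHP was added (edgeR adjusted p = 0.0257), with an interaction of 0.32 ± 0.10 (95% interval 0.12 to 0.52, edgeR adjusted p = 0.495). Aurkb and Tpx2, which act in mitosis, had 0.32 ± 0.09 and 0.31 ± 0.09 (edgeR adjusted p = 0.422 and 0.488).

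Of 24 genes in the ATF4 and unfolded protein response list, 4 had a positive interaction at an unadjusted p under 0.05 (1.88% of all genes did) and 0 a negative one, and the median was 0.15. In that list 2 genes rose with MEHP alone (2.88% of all genes did), 8 with MEHP added to ATRA (1.62%) and 14 with both against vehicle (14.3%). Atf4, the transcription factor itself, had 0.25 ± 0.08 without ATRA (edgeR adjusted p = 0.0569) and rose by 0.50 ± 0.09 with it. Psat1, of serine synthesis, had 0.24 ± 0.11 (edgeR adjusted p = 0.324) and rose by 0.60 ± 0.13, and Mthfd2, a mitochondrial folate enzyme, had 0.16 ± 0.10 (edgeR adjusted p = 0.519) and rose by 0.57 ± 0.12. Their interactions, 0.25 ± 0.12, 0.36 ± 0.17 and 0.41 ± 0.16, were not called, so a call with ATRA and none without it does not show that the arms differ.

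Of 11 Hedgehog response genes, 3 had a negative interaction at an unadjusted p under 0.05 (2.40% of all genes did) and 0 a positive one, and the median was -0.07. Gli1, a transcription factor and target of the pathway, had -0.37 ± 0.10 (edgeR adjusted p = 0.401), Ptch1, the receptor, -0.26 ± 0.11 and Hhip, a ligand-binding inhibitor, -0.54 ± 0.25 (edgeR adjusted p = 0.925 and 1). The retinoic acid list of 26 genes had a median of -0.08, with interactions from -0.72 to 1.2, 11 intervals inside 0.5 log2 units either side of 0, and Stra6 and Rxrg at an unadjusted p under 0.05. Interstitial progenitor genes had a median of -0.13 (18 genes) and anterior Hox genes -0.10 (17 genes). Of the Hox list 11 rose with ATRA and none with MEHP, against 9.06% and 2.88% of all genes. Meiosis genes had 0.06 (27 genes), Leydig cell and steroidogenesis genes 0.07 (18 genes) and Sertoli cell genes -0.11 (27 genes). The ovarian somatic list had a median of 0.22 over 15 genes, with members both ways: Esr2, an estrogen receptor, had 0.85 ± 0.26 and Wnt4, a pro-ovarian signal, -0.41 ± 0.12.

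The germ cell list (22 genes) had a median of -0.17 and male germ cell differentiation (15 genes) -0.40, but their intervals reached a median of 0.81 and 1.2 either side of the value, and none of the latter passed even an unadjusted p of 0.05. The endothelial list and the list of macrophages and blood had -0.21 each, with intervals reaching 0.53 and 0.59 either side. Sterol sensing (0.04), peritubular myoid (0.02), p53 targets (0.01), hypoxia (0.04), NRF2 targets (0.08), immediate early (-0.04) and mesonephros (-0.07) genes had medians near 0.

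**Figure D5:**
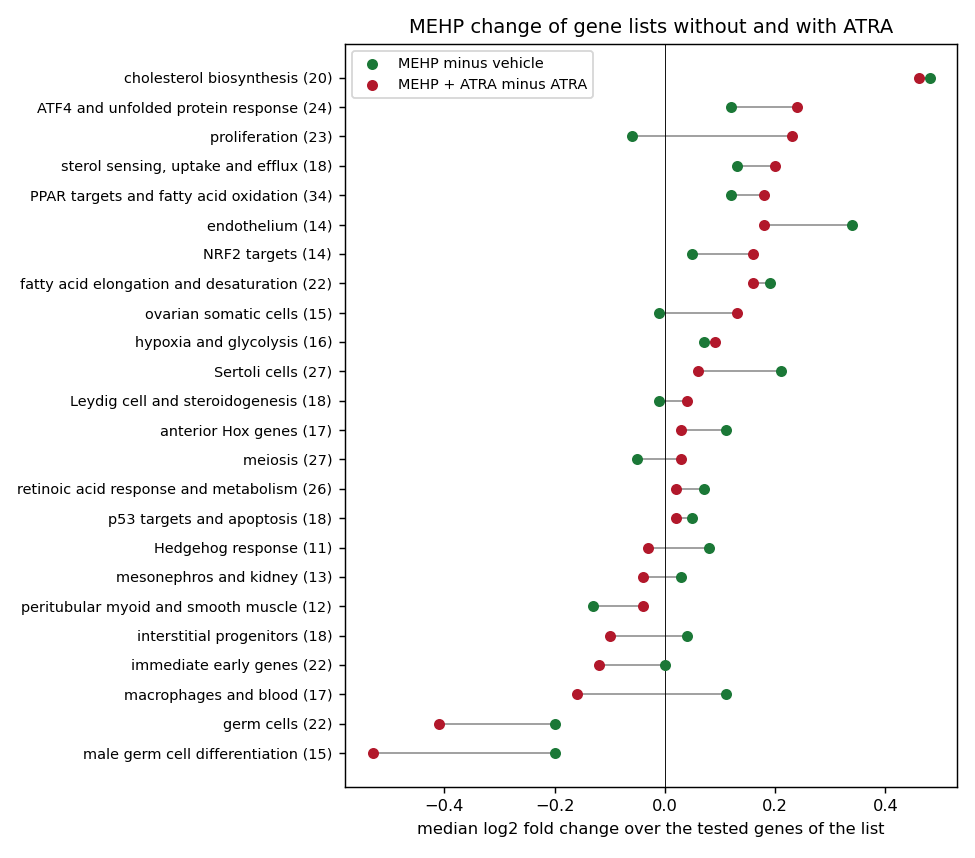
Each row is 1 of 24 gene lists, with the number of genes tested in brackets; green and red points are the median log2 change over its genes with MEHP alone and with MEHP added to ATRA, and the grey line joins them. The points for cholesterol biosynthesis almost coincide at 0.48 and 0.46, and those for proliferation are apart at -0.06 and 0.23.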

How the data were processed

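Poly(A) RNA of 30 cultures was sequenced. Per the file headers and the submitters' processing notes, the authors trimmed reads with Trimmomatic 0.36, aligned them with STAR 2.5.2b and made the deposited raw counts per gene with featureCounts (Subread 1.5.2). Neither the annotation release nor the strand setting is stated in the sources used here. Groups follow the treatment labels. Counts of 49315 genes were filtered with filterByExpr (minimum count 10), scaled by TMM (0.975 to 1.023) and fitted with edgeR 4.0.16 (glmQLFit, glmQLFTest, R 4.3.3), with 4 groups and the range of the second title number, 25 residual degrees of freedom and a biological coefficient of variation of 12.7%. P-values are two-sided and adjusted over 19323 genes. CPM use TMM-scaled library sizes. The code was tested on simulated data. No libraries held identical values.

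Named genes were the called genes whose log2 CPM averaged 1 or more (up to 10 each way), the smallest-p sub- and super-additive ones, and a panel of 24; genes named outside this rule were chosen after their values were seen. Members and lists were chosen with earlier results of these data known. Alternatives were DESeq2 1.42.0, limma-voom (limma 3.58.1), other scaling and filters, no range term, fewer libraries and a block on the first title number.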

Additional observations from a re-analysis of the deposited data

Results flagged for a closer look

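The 6 interactions called are differences between the MEHP change with ATRA and without it: 2.35 for Asic4, -1.21 for Spata21, -0.75 for Tdrp, -1.37 for Cytip, 1.06 for Plekhd1 and -3.10 for Lamp5, on the log2 scale. Further, in 14 of 140 sets of 1 gene in 1 group the highest or lowest library stood apart from the others by Dixon's gap criterion at its 95% level, which chance alone passes in about 1 in 20 sets. Among the genes called these were Asic4 in MEHP replicate 5 (3.01 CPM, the highest) and Plekhd1 in MEHP + ATRA replicate 2 (7.73 CPM, the highest). With MEHP, Egr1 stood apart in replicate 4 (46.8 CPM), Sox9 in replicate 2 (89.5 CPM), Amh in replicate 5 (1066 CPM) and Cpt1a in replicate 1 (308 CPM). With ATRA, Egr1 stood apart in replicate 1 (34.2 CPM) and Cpt1a in replicate 5 (148 CPM). With both, Cyp26a1 stood apart in replicate 3 (16.8 CPM) and Amh in replicate 1 (641 CPM). In upper-range vehicle, Slc13a2 stood apart in replicate 3 (12.6 CPM), Cpt1a in replicate 6 (188 CPM), and Dhh (220 CPM) and Sox9 (102 CPM) both in replicate 11.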

How the results depend on the processing

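No called value changed sign. Of the values of single named genes under the alternatives, 1064 kept their direction and side of the threshold, 38 lost their call and 12, set against the sum of linear changes, moved. The count of interaction calls was 6 and became 12 with DESeq2 (5 positive), 10 with limma-voom (3 positive), 10 without the range term (1 positive), 2 with only the 4 groups of libraries in the contrast, and 3 to 9 leaving out 1 library, the 3 being without MEHP + ATRA replicate 2. Sub-additive same-direction genes numbered 4, and 7 with DESeq2 and 2 to 5 leaving out 1 library. MEHP calls were 2229 without the range term, ATRA calls 5527 with limma-voom, and MEHP with ATRA calls 1656 with limma-voom and 339 to 674 leaving out 1 library (339 without MEHP + ATRA replicate 1 and 384 without replicate 4). Joint changes no larger than the larger single change numbered 45, and 22 with no filter on low counts, 108 without the range term, 18 for genes selected by the averaged MEHP change, and 29 to 71 leaving out 1 library (29 without MEHP replicate 1, 71 without MEHP replicate 2). For the same averaged selection, which also needs a call with ATRA alone, the median ratio was 0.98. The cause of these moves was not tested. Depth limits Lamp5, at 4 reads with both compounds.

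The first title number recurs across groups but names no shared animal or litter. In 20 of 29 pairs with the same number the deviations from the group means correlated over 0.1 (-0.167 to 0.797, median 0.177, against -0.0147 in 108 other pairs), and 21 of 30 libraries correlated best with their own number, which is a hint from the data and not from the design. Pairing was taken as given only if every pair exceeded 0.1, which was not met, so the fits of the report have no block. With that number as a replicate block within each range, 2 genes were called in the interaction, 2 sub-additive and 0 super-additive, and Spata21, Tdrp, Plekhd1 and Lamp5 had adjusted p-values of 0.0571, 0.107, 0.0966 and 0.0653. With the replicate block over all libraries 3 were called, 2 of them sub-additive, with Tdrp and Plekhd1 at 0.0663 and Lamp5 at 0.128, and 1371 for MEHP added to ATRA.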
